A study of Mus musculus with 15 samples.

Results

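The 10 chemokine genes described here are Ccl3, Ccl5, Ccl9, Ccl17, Ccl22, Cxcl1, Cxcl9, Cxcl10, Cxcl11 and Cxcl16, taken as a set because mature dendritic cells use secreted chemokines to draw in other leukocytes. They were found among the array's probe sets by the platform annotation, keeping probe sets that name exactly 1 of these genes, and where a gene had several the one brightest on average across the 15 arrays was used. They are 10 of 18194 genes with such a probe set, and all 10 were among the 13629 genes tested. The genes were chosen with earlier results of these data known. The annotation gave 16 probe sets for them, and 5 of the genes had more than 1. The study profiled mouse XCR1+ dendritic cells, the cross-presenting dendritic cell lineage, on Affymetrix expression arrays, with total RNA from cells sorted out of thymus and spleen and 3 arrays in each of 5 groups. Mature thymus cells were the CCR7+ cells of untreated mice, with the sorting phenotype CD11c+ CD317- CD172a- CD117- CCR7+, and immature thymus cells were CD117+ CCR7- cells of the same lineage gate. The spleen gave polyI:C-matured CCR7+ cells, taken 18 h after an intraperitoneal injection of 10 µg polyI:C, together with mature CCR7+ cells and immature CCR7- cells of untreated mice. PolyI:C is a synthetic double-stranded RNA that cells sense as they would a virus. The labels used here give no strain, age or sex, and do not say whether replicates came from separate mice or sorts, so the p-values rest on how far these samples spread, which may be technical variation alone.

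Chemokines are small proteins that bind G protein-coupled receptors on leukocytes and set the direction in which those cells move. CCL17 and CCL22 act through CCR4 on T cells, CCL3, CCL5 and CCL9 act through CCR1 on myeloid cells and T cells, and CXCL9, CXCL10 and CXCL11 act through CXCR3, the receptor of effector T cells and NK cells. CXCL1 draws neutrophils through CXCR2, and CXCL16 is made as a membrane-bound ligand of CXCR6 that can be shed. In the thymic medulla, dendritic cells that make CCR4 ligands meet positively selected thymocytes, and in the spleen mature dendritic cells move to the T cell zone. Interferons and NF-kB are well known drivers of chemokine transcription.

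The deposited values are log2 intensities, array medians lay between 4.86 and 5.0 and the largest value on each array was 14.24 or more. Differences below are on the log2 scale, a gene is called changed where limma's adjusted p over all genes tested is under 0.05, and 4.39 is the level above which a gene had to lie in at least 3 arrays to be tested. There are no detection calls, so levels near 4.39 are of uncertain presence. Ccr7, on which the cells were sorted, averaged 13.03 in mature thymus cells and 8.84 in immature thymus cells, and 12.87, 12.95 and 8.42 in polyI:C-matured, untreated mature and immature spleen cells. Of 7 annotated XCR1+ dendritic cell markers, 6 were lower in mature than in immature cells of each tissue. Xcr1 itself averaged 5.25 in mature thymus cells and 11.40 in immature thymus cells, and 8.03 in untreated mature and 11.58 in immature spleen cells. Arrays correlated with the others of their own group at a mean r of 0.964 to 0.990, lowest for untreated mature spleen, where Xcr1 had an SD of 1.62. T cell markers also moved with maturation, at the values given with Ccl5 below. Of 6 measured B cell markers, 3 were called higher with thymic maturation (median change 1.44) and 5 with untreated spleen maturation (median 1.73), a median close to that of the chemokines in spleen. Their summed linear signal was 490 to 2160 in mature and 299 to 404 in immature thymus cells, and 1600 to 5187 in untreated mature and 743 to 867 in immature spleen cells. Their part in the chemokine changes was not tested.

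Maturation changed most of the 10 chemokines, in both directions. In the thymus 6 were higher and 2 lower in mature than in immature cells, where 16.8% of all genes tested were called higher, 20.4% lower and 37.3% in either direction. In untreated spleen 6 were higher and 2 lower, against 12.3% and 24.1% of all genes and 36.5% in either direction. With polyI:C 7 were higher and 2 lower than in immature spleen cells, against 18.4% and 28% of all genes and 46.4% in either direction. The median change of the 10 was 1.33 in the thymus, 1.72 in untreated spleen and 1.82 with polyI:C, beside medians over all genes of -0.06, -0.03 and 0.02. The arrays of the 2 groups did not overlap for 10 of the 10 in thymus, 10 in untreated spleen and 9 with polyI:C, beside 50.4%, 43% and 57.2% of all genes. Both spleen comparisons share the 3 immature spleen arrays. Since the 10 genes were chosen with earlier results of these data known, their shares beside all genes may partly reflect that choice. Ccl5, Ccl9, Ccl22, Cxcl1 and Cxcl16 rose and Ccl3 and Cxcl9 fell in all 3 comparisons. Ccl17 rose in the 2 untreated tissues, and Cxcl10 and Cxcl11 rose with polyI:C. In bulk samples such as these, fewer cells making a transcript and less RNA per cell cannot be told apart.

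**Figure D1:**
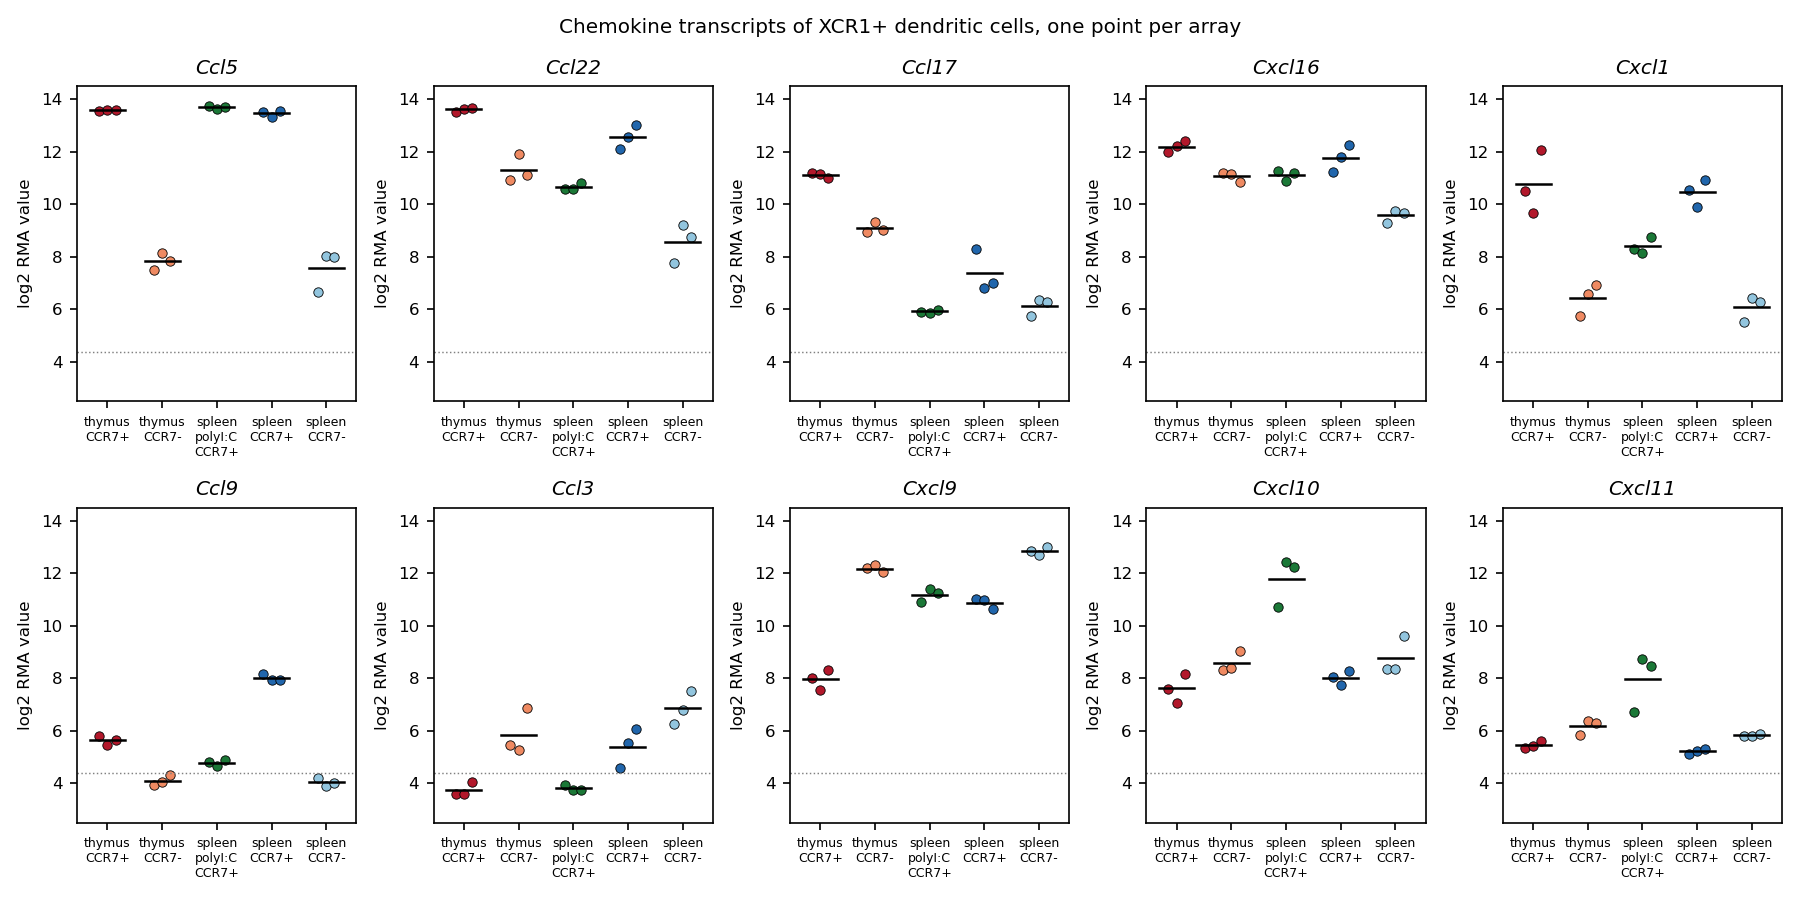
Log2 intensity of each of the 10 chemokines on each array, 1 panel a gene, with the 5 groups along the horizontal axis, a bar at each group mean of 3 arrays and a dotted line at 4.39, the level of the filter. Ccl5 sits at 13.32 or more on all 9 mature arrays, Ccl17 is highest in mature thymus and has its lowest mean in polyI:C-matured spleen, and Cxcl10 and Cxcl11 are highest in polyI:C-matured spleen.

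**Figure D2:**
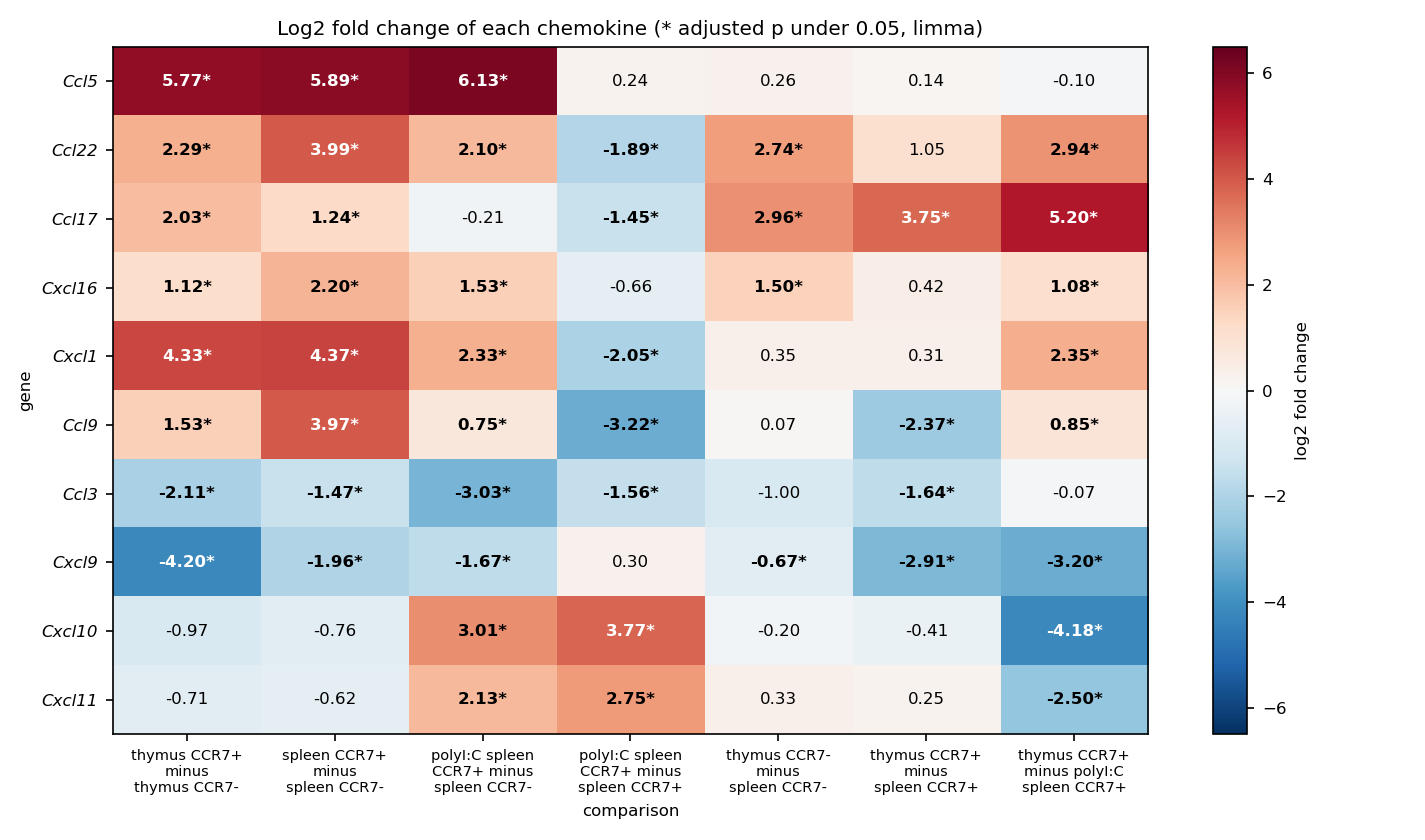
Log2 differences of the 10 chemokines in each comparison, coloured by size and direction, with an asterisk where limma's adjusted p was under 0.05. Ccl5 stands out with changes of 5.77 to 6.13 in the 3 maturation comparisons, and Cxcl10 with 3.77 between polyI:C-matured and untreated mature spleen.

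Ccl22 and Ccl17, the ligands of CCR4, were highest in mature thymus cells and higher in immature thymus than in immature spleen cells. On the mature thymus arrays Ccl22 was at 13.52, 13.62 and 13.68, against 10.92, 11.91 and 11.10 on the immature thymus arrays. In spleen it was at 10.59, 10.59 and 10.81 after polyI:C, at 12.10, 12.56 and 13.0 in untreated mature cells and at 7.76, 9.19 and 8.75 in immature cells. Like Ccl5 below, the mature thymus values are close to the largest on an array, where differences can be compressed, which bears on each Ccl22 difference that uses them. No 2 of the 5 groups next to each other in level overlapped in their arrays, and mature thymus was the highest and immature spleen the lowest. Ccl22 rose by 2.29 ± 0.33 with thymic maturation (SE, adjusted p = 6.76e-05), and by 3.99 ± 0.33 with untreated spleen maturation (adjusted p = 7.04e-07), a 15.9-fold change. It also rose with polyI:C, by 2.10 ± 0.33 over immature spleen cells (adjusted p = 0.000105). Immature thymus cells already had 2.74 ± 0.33 more than immature spleen cells (adjusted p = 7.8e-05). Of 6 measured markers of mature dendritic cells, 3 were also higher in immature thymus than in immature spleen cells, Fscn1 by 2.19, Socs2 by 1.21 and Cd40 by 1.15. Of 5 tested markers of CD172a+ dendritic cells 1 was called higher there and 0 lower, with a median difference of -0.27. Among them Mgl2 averaged 6.66 in immature thymus and 3.68 in immature spleen cells. The part of either marker set in the Ccl22, Ccl17 and Cxcl16 differences between immature cells was not tested. Among mature cells the thymus lay 1.05 ± 0.33 above untreated spleen (95% interval 0.34 to 1.76), which missed the threshold at an adjusted p of 0.0531. That call turned with small changes of the fit, passing in 11 of 27 alternatives with adjusted p between 0.00279 and 0.175. It passed at 0.00279 with same-numbered arrays of the 2 tissues paired within a fraction, and without replicate 3 of untreated mature spleen the difference was 1.27 (adjusted p = 0.0358). It also passed without replicate 1 or 2 of immature spleen, at 0.0199 and 0.0364, and without replicate 2 of immature thymus, at 0.0382.

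Ccl17, encoded near Ccl22 on chromosome 8, was at 11.19, 11.16 and 11.01 in mature thymus cells, against 8.93, 9.33 and 9.0 in immature thymus cells. In spleen it was at 5.91, 5.86 and 5.99 after polyI:C, at 8.30, 6.81 and 7.01 in untreated mature cells and at 5.74, 6.35 and 6.29 in immature cells. Every thymus array, mature or immature, was above every spleen array. The gene rose by 2.03 ± 0.30 in the thymus (adjusted p = 8.2e-05) and by 1.24 ± 0.30 in untreated spleen (adjusted p = 0.0045). Replicate 1 carried much of the spleen change, which was 0.78 without it and still called (adjusted p = 0.00611). With polyI:C it differed by -0.21 ± 0.30 from immature spleen cells (95% interval -0.85 to 0.43, adjusted p = 0.599), with arrays of the 2 groups overlapping. The tissue difference was 2.96 ± 0.30 between immature cells (adjusted p = 1.48e-05) and 3.75 ± 0.30 between mature untreated cells (adjusted p = 1.81e-06), a 13.5-fold difference. Against polyI:C-matured spleen the mature thymus was 5.20 ± 0.30 higher, or 36.8-fold (adjusted p = 6.53e-08). Between untreated mature cells, no other chemokine of the 10 had a difference above 1.05 in favour of the thymus.

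PolyI:C-matured spleen cells had less of both CCR4 ligands than untreated mature spleen cells. Across the 10 chemokines this comparison called 2 higher and 5 lower, where 8.58% of all genes were called higher, 9.66% lower and 18.2% in either direction, with a median change of -1.06 beside 0.01 over all genes. Arrays did not overlap for 8 of the 10, beside 27.3% of all genes. Ccl22 was lower by a log2 difference of -1.89 ± 0.33, or 3.7-fold (adjusted p = 0.00113), and Ccl17 by -1.45 ± 0.30 (adjusted p = 0.0036). The Ccl17 call was lost when the fit used the arrays of these 2 groups alone (adjusted p = 0.057). B cell markers differed between the same groups. Of 6 measured, 3 were lower after polyI:C, and their summed linear signal was 838 to 1357 on the polyI:C arrays and 1600 to 5187 on the untreated mature spleen arrays. The part of other cells in these differences was not tested.

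Ccl5, whose product CCL5 (RANTES) attracts T cells and monocytes, had the largest rise of the 10 chemokines in each maturation comparison. Mature thymus arrays stood at 13.56, 13.60 and 13.60, against 7.48, 8.14 and 7.85 on immature thymus arrays. The spleen arrays stood at 13.74, 13.64 and 13.69 after polyI:C, at 13.51, 13.32 and 13.53 in untreated mature cells and at 6.65, 8.04 and 8.0 in immature cells. All 9 mature arrays were above all 6 immature ones by more than 5 log2 units. The rise was 5.77 ± 0.29 in the thymus, or 54.4-fold (adjusted p = 3.4e-09), 5.89 ± 0.29 in untreated spleen, or 59.1-fold (adjusted p = 4.8e-09), and 6.13 ± 0.29 with polyI:C, or 69.9-fold (adjusted p = 1.08e-09). The 3 mature groups lay close together. The difference of polyI:C-matured from untreated mature spleen was 0.24 with a 95% interval of -0.37 to 0.85 (adjusted p = 0.65), and that of mature thymus from untreated mature spleen was 0.14 (-0.47 to 0.75). These levels are close to the largest value on an array, where differences can be compressed. T cells and NK cells also make Ccl5. Of 9 measured T cell markers 7 were higher in mature than in immature thymus cells, with a summed linear signal of 1105 to 3025 in mature and 333 to 655 in immature thymus arrays. In spleen the same sum was 538 to 701 after polyI:C, 302 to 403 in untreated mature and 206 to 236 in immature cells, and 2 of 9 were called higher in each spleen maturation. None of 4 tested NK cell markers was called in these comparisons, and the sum of the 6 annotated ones was 116 to 260 over all 15 arrays. The part of T cells in the Ccl5 values was not tested.

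Ccl3 and Ccl9 bind the CCR1 receptor and went opposite ways. Ccl3, which encodes the inflammatory chemokine MIP-1 alpha, was at 3.58, 3.6 and 4.06 in mature thymus cells, against 5.45, 5.25 and 6.86 in immature thymus cells. It was at 3.95, 3.74 and 3.76 in spleen after polyI:C, at 4.57, 5.52 and 6.06 in untreated mature cells and at 6.27, 6.79 and 7.5 in immature cells. The 6 arrays of mature thymus and polyI:C-matured spleen were all below 4.39. Ccl3 fell by 2.11 ± 0.43 on the log2 scale in the thymus (adjusted p = 0.00118) and by 3.03 ± 0.43 with polyI:C (adjusted p = 3.88e-05). In untreated spleen it fell by 1.47 ± 0.43 (adjusted p = 0.0142), a call that was lost without replicate 3 of immature spleen (-1.14, adjusted p = 0.071), without replicate 1 of untreated mature spleen (-1.06, 0.0721) and with array weights (-1.38, 0.0532). It was lower in polyI:C-matured than in untreated mature spleen cells (-1.56 ± 0.43, adjusted p = 0.0198). Leaving out replicate 2 or 3 of either spleen group lost that call, with adjusted p between 0.0521 and 0.0756. The difference of mature thymus from untreated mature spleen was -1.64 ± 0.43 (adjusted p = 0.0219), which was lost without replicate 1 or 2 of mature thymus or replicate 3 of untreated mature spleen (adjusted p 0.0668 to 0.0817). Between immature cells, thymus against spleen, the difference was -1.0 ± 0.43 (adjusted p = 0.218). It passed without replicate 3 of immature thymus (-1.5, adjusted p = 0.0382) and with same-numbered arrays paired within a fraction (adjusted p = 0.013).

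Ccl9, which encodes a CCR1 ligand of mice known for attracting myeloid cells, was highest in untreated mature spleen cells. In thymus it was at 5.81, 5.46 and 5.65 in mature cells, against 3.95, 4.04 and 4.33 in immature cells. In spleen it was at 4.81, 4.66 and 4.89 after polyI:C, at 8.18, 7.93 and 7.92 in untreated mature cells and at 4.21, 3.91 and 4.0 in immature cells. All 6 immature arrays were below 4.39, so the rises are measured from near background. The rise was 1.53 ± 0.15 in the thymus (adjusted p = 1.82e-06), 3.97 ± 0.15 in untreated spleen, or 15.7-fold (adjusted p = 2.72e-09), and 0.75 ± 0.15 with polyI:C (adjusted p = 0.000772). PolyI:C-matured cells differed from untreated mature spleen cells by -3.22 ± 0.15 (adjusted p = 3.96e-09), or 9.33-fold. A second Ccl9 probe set was below 4.39 on all 15 arrays and showed changes of 0.12 in the thymus and 0.33 in untreated spleen. With the mean of both probe sets every call stood at a smaller size. The changes were then 0.83 in the thymus, 2.15 in untreated spleen and 0.40 with polyI:C, and polyI:C-matured cells differed from untreated mature spleen cells by -1.75. Of 11 annotated macrophage or monocyte markers, cells in which Ccl9 is also expressed, the summed linear signal was 2971 to 4227 after polyI:C, 4244 to 6340 in untreated mature and 4840 to 6248 in immature spleen cells. In the thymus it was 3708 to 5175 in mature and 4052 to 4256 in immature cells, a sum led by a few bright genes. Of the 11, 5 were called higher with thymic maturation, where Ccl9 rose too, among them Spic (1.69), Vcam1 (1.59), C1qc (1.47) and C1qa (1.45), and 2 were lower, Cd68 (-3.07) and Csf1r (-2.50). In untreated spleen 2 were higher and 2 lower. The part of such cells in the Ccl9 values was not tested.

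The 3 ligands of CXCR3, all on chromosome 5, did not move as a group. Cxcl9 encodes the one most tied to interferon gamma, and Cxcl10 and Cxcl11 are also induced by type I interferons. Of the 10 genes, 7 had a promoter in the RefSeq tables (GRCm38.p6), read as the 250 bases upstream of the gene's start. The promoters of Cxcl10 (chr5:92348890-92349139, minus strand) and Cxcl9 (chr5:92328080-92328329, minus strand) are shown because these neighbouring genes went opposite ways between polyI:C-matured and immature spleen cells. Cxcl9 also fell in untreated spleen. Between polyI:C-matured and untreated mature spleen it differed by 0.30 (limma's adjusted p = 0.345), and by -0.42 at a second probe set. The Cxcl1 promoter (chr5:90890995-90891244, plus strand) is shown because Cxcl1 rose in all 3 maturation comparisons and holds a match. Capitals mark matches to 2 motifs searched on both strands.
Cxcl10: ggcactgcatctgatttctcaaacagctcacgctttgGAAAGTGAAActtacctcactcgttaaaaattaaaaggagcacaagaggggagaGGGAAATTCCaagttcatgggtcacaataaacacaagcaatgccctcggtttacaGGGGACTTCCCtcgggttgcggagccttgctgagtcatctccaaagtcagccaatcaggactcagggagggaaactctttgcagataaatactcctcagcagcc
Cxcl9: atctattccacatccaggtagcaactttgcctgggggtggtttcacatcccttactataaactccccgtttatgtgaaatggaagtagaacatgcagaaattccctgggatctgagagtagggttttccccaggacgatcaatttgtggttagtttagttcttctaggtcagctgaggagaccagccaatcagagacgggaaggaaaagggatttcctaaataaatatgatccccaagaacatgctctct
Cxcl1: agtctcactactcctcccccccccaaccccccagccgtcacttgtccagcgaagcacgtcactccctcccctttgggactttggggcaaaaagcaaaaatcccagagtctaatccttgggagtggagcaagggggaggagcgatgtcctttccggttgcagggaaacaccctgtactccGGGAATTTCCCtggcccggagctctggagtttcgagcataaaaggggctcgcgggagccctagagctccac
The first motif was the interferon-stimulated response element (ISRE), searched as GAAA, any 2 bases and GAAA, which 2.98% of 32851 promoters of the same length hold. The second was the NF-kB consensus, held by 7.25%. Cxcl10 held 1 ISRE match, GAAAGTGAAA, at positions -213 to -204 counted from the start, and NF-kB matches in 2 stretches, GGGAAATTCC and the overlapping matches within GGGGACTTCCC. Cxcl1 held NF-kB matches on both strands within GGGAATTTCCC, at positions -71 to -61. The Cxcl9 window held no match to either. Of the other promoters searched, that of Ccl9 held an NF-kB match, and those of Ccl3, Ccl17 and Ccl22 held no match to either. Ccl22, like Cxcl1, rose in each maturation comparison. The third motif was the interferon gamma-activated site (GAS), searched as TTCNNNGAA, where N is any base, which 7.02% of the promoters hold. Ccl17 held 1 GAS match, TTCTTTGAA, at positions -99 to -91, and no other promoter of the 10 genes held one. Such matches are letters in a window and no measurement of binding.

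Cxcl9 fell with maturation in every comparison. It was at 8.02, 7.57 and 8.33 in mature thymus cells, against 12.19, 12.31 and 12.03 in immature thymus cells. Spleen cells were at 10.92, 11.38 and 11.24 after polyI:C, at 11.03, 10.96 and 10.65 in untreated mature cells and at 12.86, 12.69 and 12.98 in immature cells. Mature thymus was the lowest group by more than 2 log2 units, and the 2 mature spleen groups overlapped. The fall was 4.20 ± 0.19 in the thymus (adjusted p = 1.95e-09), an 18.4-fold drop. In untreated spleen Cxcl9 fell by 1.96 ± 0.19 (adjusted p = 3.61e-06), and with polyI:C it fell by 1.67 ± 0.19 (adjusted p = 6.02e-06). PolyI:C-matured and untreated mature spleen differed by 0.30 ± 0.19 (95% interval -0.12 to 0.71, adjusted p = 0.345). At a second Cxcl9 probe set this difference was -0.42, of the opposite sign. Mature thymus was below untreated mature spleen, with a difference of -2.91 ± 0.19 (adjusted p = 2.93e-07). For the maturation changes the second probe set gave -3.53 in the thymus, -2.38 in untreated spleen and -2.80 with polyI:C, the last of which is more than 1.5 times the value above. Immature thymus cells differed from immature spleen cells by -0.67 ± 0.19 (adjusted p = 0.0457), a call lost in 14 of 27 alternatives (adjusted p 0.00012 to 0.177). It was lost without any single one of the 6 immature arrays, and also without replicate 2 of untreated mature spleen, replicate 3 of polyI:C-matured spleen or replicate 1 of mature thymus. With same-numbered arrays paired within a fraction its adjusted p was 0.0617, and the second probe set put the difference at -1.60.

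Cxcl10 and Cxcl11 rose after polyI:C, both over untreated mature and over immature spleen cells. Cxcl10 was at 10.72, 12.42 and 12.23 in polyI:C-matured spleen, against 8.05, 7.73 and 8.28 in untreated mature and 8.37, 8.37 and 9.59 in immature spleen. In thymus it was at 7.59, 7.07 and 8.17 in mature and 8.32, 8.40 and 9.02 in immature cells. All 3 polyI:C arrays were above all 12 others. Cxcl10 rose by 3.77 ± 0.44 over untreated mature spleen, or 13.6-fold (adjusted p = 4.08e-05), and by 3.01 ± 0.44 over immature spleen (adjusted p = 5.1e-05). Cxcl11, 6.70, 8.73 and 8.46 with polyI:C, had 5.12, 5.23 and 5.29 in untreated mature spleen and 5.81, 5.81 and 5.89 in immature spleen. Its thymus values were 5.36, 5.41 and 5.62 in mature and 5.83, 6.37 and 6.31 in immature cells. Cxcl11 rose by 2.75 ± 0.37 over untreated mature spleen (adjusted p = 0.000146) and by 2.13 ± 0.37 over immature spleen (adjusted p = 0.000253). RefSeq lists Cxcl11 as a transcribed pseudogene in this C57BL/6J assembly, and the second Cxcl11 probe set was above 4.39 in 3 arrays, with changes of 1.06 and 1.04 in the 2 polyI:C comparisons.

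Without polyI:C the levels of Cxcl10 and Cxcl11 lay below those of immature cells, and neither fall passed the threshold. Cxcl10 differed by -0.97 ± 0.44 in the thymus (95% interval -1.91 to -0.03, adjusted p = 0.101) and by -0.76 ± 0.44 in untreated spleen (-1.69 to 0.18, adjusted p = 0.205). For Cxcl11 the differences were -0.71 ± 0.37 in the thymus (-1.5 to 0.08, adjusted p = 0.159) and -0.62 ± 0.37 in untreated spleen (-1.41 to 0.17, adjusted p = 0.217). In all 4 of these the arrays of the 2 groups did not overlap, as was so for 50.4% of all genes in the thymus and 43% in untreated spleen. The shared spread includes the polyI:C arrays, of which replicate 1 was the lowest for both genes. Without that array the adjusted p was 0.0407 for Cxcl10 in the thymus, 0.00259 for Cxcl11 in the thymus and 0.00675 for Cxcl11 in untreated spleen. In a fit of the 2 compared groups alone, Cxcl10 in the thymus reached 0.0215 and Cxcl11 reached 0.00901 and 0.0178.

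Cxcl1, a ligand of the neutrophil receptor CXCR2, rose in all 3 maturations and most without polyI:C. It was at 10.52, 9.67 and 12.07 in mature thymus cells, against 5.76, 6.58 and 6.93 in immature thymus cells. Spleen arrays were at 8.30, 8.16 and 8.74 after polyI:C, at 10.53, 9.89 and 10.92 in untreated mature cells and at 5.52, 6.43 and 6.28 in immature cells. The 2 untreated mature groups overlapped, polyI:C-matured cells lay between them and the immature groups, and the arrays spread most within mature thymus. Cxcl1 rose by 4.33 ± 0.49 in the thymus (adjusted p = 8.01e-06), by 4.37 ± 0.49 in untreated spleen (adjusted p = 1.35e-05) and by 2.33 ± 0.49 with polyI:C (adjusted p = 0.00125). PolyI:C-matured cells differed from untreated mature spleen cells by -2.05 ± 0.49 (adjusted p = 0.00978). Mature thymus differed from untreated mature spleen by 0.31, with an interval of -0.75 to 1.36 (adjusted p = 0.732). The gene has 3 probe sets. The other 2 gave thymus changes of 5.28 and 1.68, untreated spleen changes of 5.57 and 1.67, and polyI:C changes of 3.30 and 0.99. Their differences of polyI:C-matured from untreated mature spleen were -2.27 and -0.68. In these comparisons the direction held and the size depended on the probe set.

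Cxcl16, a transmembrane chemokine for CXCR6+ T cells and NKT cells, was above 9 on every array and rose in all 3 maturations. It was at 11.98, 12.20 and 12.39 in mature thymus cells, against 11.20, 11.14 and 10.86 in immature thymus cells. Spleen cells had 11.28, 10.87 and 11.17 after polyI:C, 11.24, 11.81 and 12.25 in untreated mature and 9.30, 9.76 and 9.66 in immature cells. Immature spleen was the one group that stood apart from all others. The rise was 1.12 ± 0.23 in the thymus (adjusted p = 0.00121), 2.20 ± 0.23 in untreated spleen (adjusted p = 6.33e-06) and 1.53 ± 0.23 with polyI:C (adjusted p = 6.32e-05). Immature thymus cells had 1.5 ± 0.23 more than immature spleen cells (adjusted p = 0.000613), while mature thymus differed from untreated mature spleen by 0.42 (95% interval -0.07 to 0.91, adjusted p = 0.261). PolyI:C-matured cells differed from untreated mature spleen cells by -0.66 ± 0.23 (adjusted p = 0.0589). That difference passed in 5 alternatives, without replicate 1 of untreated mature spleen (-0.92, adjusted p = 0.00615), with its most variable probe set (0.0193), the mean of its probe sets (0.0247), array weights (0.038) and repeated quantile normalisation (0.0482).

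Between tissues, immature thymus cells had more Ccl17, Ccl22 and Cxcl16 and less Cxcl9 than immature spleen cells. These are 3 of the 10 called higher and 1 lower, where 4.92% of all genes were called higher, 3.24% lower and 8.16% in either direction. All 9 spleen samples carry a set name in their titles that no thymus sample carries, and its meaning is not given, so tissue and set cannot be told apart in any difference between thymus and spleen. Mature thymus cells had more Ccl17 and less Ccl3, Ccl9 and Cxcl9 than untreated mature spleen cells, 1 higher and 3 lower beside 8.71% higher, 3.47% lower and 12.2% in either direction of all genes. The Ccl9 difference there was -2.37 ± 0.15 (adjusted p = 1.99e-07), and -1.22 with the mean of its probe sets. Same-numbered arrays of the 2 tissues deviated together, and with them paired within a fraction 2694 genes were called between the mature groups instead of 1660. Against polyI:C-matured spleen, mature thymus was higher in 5 of the 10 (Ccl9, Ccl17, Ccl22, Cxcl1 and Cxcl16) and lower in 3 (Cxcl9, Cxcl10 and Cxcl11), beside 16.7%, 7.4% and 24.1% in either direction of all genes. Arrays of the compared groups did not overlap for 4 of the 10 between immature cells, beside 25.9% of all genes, for 7 between untreated mature cells, beside 26.2%, and for 9 between mature thymus and polyI:C-matured spleen, beside 42.1%. The lowest value against polyI:C-matured spleen was that of Cxcl10, with a difference of -4.18 ± 0.44 (adjusted p = 1.34e-05). T cell markers were higher in mature thymus than in untreated mature spleen for 5 of 9, at the sums given for Ccl5, and their part in these differences was not tested.

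**Figure D3:**
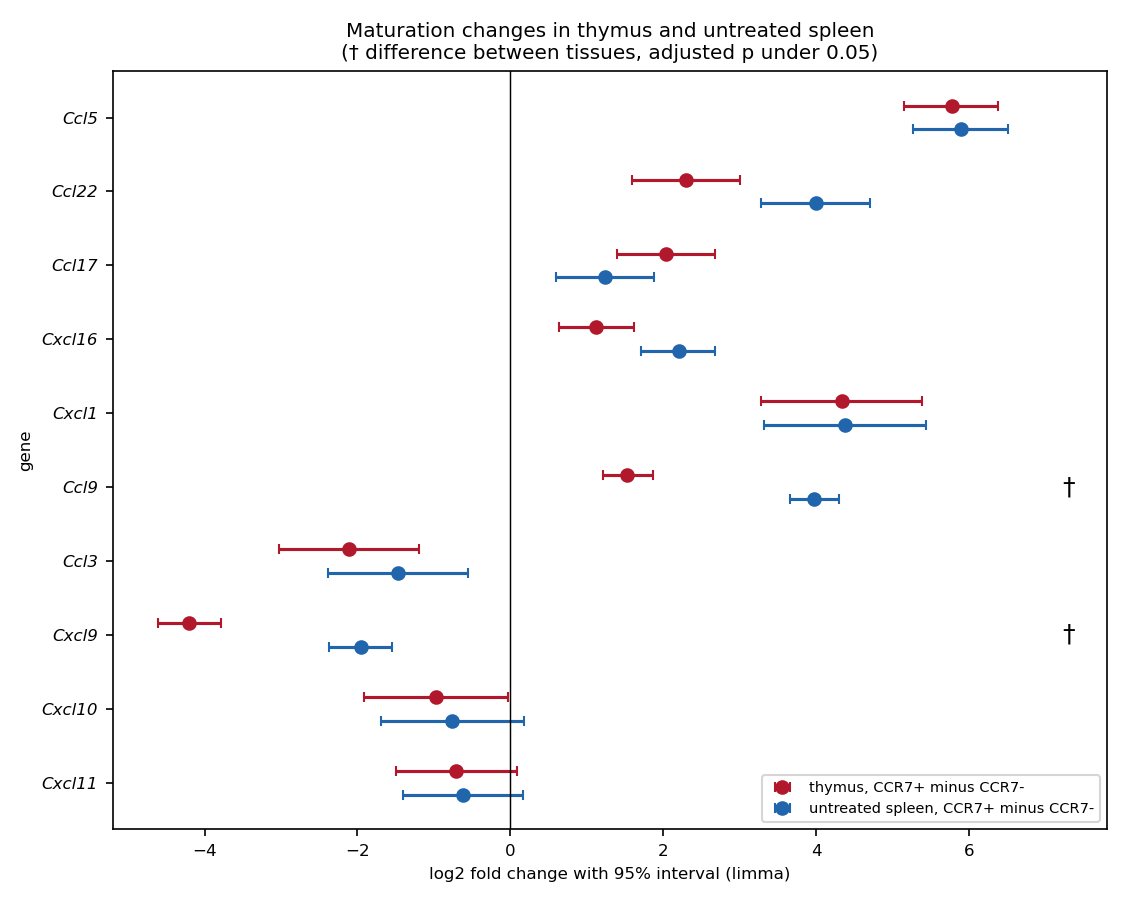
Log2 change with maturation of each chemokine in thymus and in untreated spleen, with 95% intervals from limma, and a dagger where the 2 changes differed at an adjusted p under 0.05. Ccl9 rose by 1.53 in thymus and 3.97 in spleen, and Cxcl9 changed by -4.20 in thymus and -1.96 in spleen, and these 2 carry the dagger.

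The maturation change itself differed between tissues for 2 of the 10, both more negative in the thymus, where 1.79% of all genes differed in the positive and 1.39% in the negative direction and 3.18% in either. The thymus change minus the spleen change was -2.44 ± 0.21 for Ccl9 (adjusted p = 2.59e-05) and -2.24 ± 0.27 for Cxcl9 (adjusted p = 0.000294). Both kept the call in 27 of 27 alternatives, at values from -2.52 to -1.32 for Ccl9 and from -2.42 to -1.14 for Cxcl9. The XCR1+ dendritic cell markers went the same way as Cxcl9, with a median difference of -2.56 and 3 of 7 called lower, and 5 of 7 were lower in mature thymus than in untreated mature spleen. Whether Cxcl9 differs apart from them was not tested. Ccl9 was at -1.32 with the mean of its probe sets and Cxcl9 at -1.14 with the probe set of largest variance. No difference was called for Ccl5, at -0.12 (95% interval -0.99 to 0.75) and with mature values near the top of the array range, or for Cxcl1, at -0.04 with a wide interval of -1.53 to 1.45. For Ccl22 the difference was -1.69 ± 0.47 (adjusted p = 0.0705) and for Cxcl16 -1.07 ± 0.32 (adjusted p = 0.0956). Both passed in some alternatives. With array weights Ccl22 reached 0.046 and Cxcl16 0.0445, with a replicate block over all arrays Ccl22 reached 0.0268, and Cxcl16 reached 0.0352 with its most variable probe set and 0.04 with the mean of both. Without replicate 1 of untreated mature spleen Ccl22 was at -1.92 (adjusted p = 0.0424), Cxcl16 at -1.34 (adjusted p = 0.0149) and Ccl17 at 1.25 (adjusted p = 0.0142, against 0.79 and 0.401 with it), so 5 of the 10 were called. Ccl22 also passed without replicate 2 of immature spleen (-2.0, adjusted p = 0.0314). With same-numbered arrays paired within a fraction, Ccl22 and Cxcl16 passed at 0.00419 and 0.0293, and 990 genes were called in place of 433. Without replicate 3 of immature thymus 270 genes were called.

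Among 28 other chemokines listed, 25 had a probe set of their own and 15 were tested. In the thymus 3 were higher and 1 lower in mature than in immature cells. These were Cx3cl1 (1.82 ± 0.19, adjusted p = 2.97e-06), a membrane-bound chemokine for CX3CR1+ cells, Ccl25 (1.24 ± 0.24, 0.000803), the CCR9 ligand of thymus, Cxcl12 (0.60 ± 0.17, 0.0109), and Ccl4 (-2.13 ± 0.37, 0.000371), the chemokine closest to Ccl3. Untreated spleen had 2 higher, Cx3cl1 (0.88) and the B cell chemokine Cxcl13 (0.58). PolyI:C maturation had 2 higher, Cx3cl1 (1.35) and Cxcl13 (1.05), and 2 lower, Ccl6 (-1.19) and Ccl4 (-1.0). Ccl4 was at 6.16, 5.93 and 6.64 in mature thymus cells, against 7.97, 7.83 and 9.33 in immature thymus cells. These 4, 2 and 4 calls of 15 are below the 37.3%, 36.5% and 46.4% of all genes called in the same comparisons. PolyI:C-matured spleen was lower than untreated mature spleen in Ccl6 alone (-1.83 ± 0.26, adjusted p = 0.000247). In mature thymus cells Ccl25 was at 6.87, 7.31 and 6.10, against 4.90, 4.72 and 4.52 in untreated mature spleen cells. The difference was 2.05 ± 0.24 (adjusted p = 6.56e-05), and its maturation change differed between tissues by 1.41 ± 0.34 (adjusted p = 0.0358). Thymic epithelial cells make Ccl25. Their 6 markers summed to 531 to 664 in mature and 1492 to 1676 in immature thymus arrays, and the fall in that sum was mostly Epcam (8.17 in mature and 10.44 in immature thymus). Krt8 of the same list rose with Ccl25, by 1.44 in thymic maturation (adjusted p = 0.00016), to 7.24 in mature against 5.80 in immature thymus cells, and averaged 4.82 in untreated mature spleen. Foxn1 was at 4.66 and 4.77 and Krt14 at 4.14 and 4.17 in mature and immature thymus. The part of such cells in the Ccl25 values was not tested.

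The receptors of these chemokines were measured by 11 of 12 listed genes, of which 7 were tested. Cxcr3, the receptor of Cxcl9, Cxcl10 and Cxcl11, averaged 6.60 ± 0.32 in mature and 9.89 ± 0.11 in immature thymus cells (SD, n = 3 arrays each), and 6.95 ± 0.28, 8.25 ± 0.49 and 10.72 ± 0.19 in polyI:C-matured, untreated mature and immature spleen cells. It fell by 3.29 ± 0.23 in the thymus (SE, adjusted p = 8.87e-08), by 2.47 ± 0.23 in untreated spleen (adjusted p = 2.55e-06) and by 3.77 ± 0.23 with polyI:C (adjusted p = 1.57e-08). Ccr2, a receptor of monocyte chemokines, fell by 2.91, 2.34 and 2.54 in the same order. Ackr3, a scavenging receptor, rose by 2.09 in untreated spleen (adjusted p = 0.0442). Its arrays were at 6.57, 7.84 and 4.68 in untreated mature and 4.18, 4.51 and 4.15 in immature spleen, so replicate 3 lay near the immature level. The dipeptidyl peptidase Dpp4, which trims several chemokines, was lower in thymus than in spleen. The differences were -1.37 ± 0.21 between mature untreated cells (adjusted p = 0.000645) and -1.34 ± 0.21 between immature cells (adjusted p = 0.000827). Adam17, a sheddase, was lower with polyI:C than in immature spleen cells (-0.95 ± 0.26, adjusted p = 0.00857), and Adam10, which sheds CXCL16, was not called in any comparison.

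Sensing, interferon and NF-kB genes, 23 of 26 of them measured and tested, also differed after polyI:C. Against untreated mature spleen 6 were higher and 1 lower after polyI:C, beside 8.58% and 9.66% of all genes. Ifnb1, the interferon beta gene, was at 6.58, 8.24 and 8.48 on the polyI:C arrays, against 4.83, 4.74 and 4.94 on the untreated mature spleen arrays, a rise of 2.93 ± 0.35 (adjusted p = 4.52e-05). Irf7 rose by 4.76 ± 0.39 (adjusted p = 1.48e-06), the RNA sensor gene Ddx58 by 4.21 ± 0.18 (adjusted p = 1.84e-09) and Stat2 by 2.41 ± 0.26 (adjusted p = 2.57e-05). Untreated maturation had 6 of these genes higher and 6 lower in the thymus and 7 higher and 6 lower in spleen. Of all genes 16.8% were higher and 20.4% lower in the thymus, and 12.3% and 24.1% in spleen. The lower counts, of 23, are near those shares. Relb, an NF-kB subunit of mature dendritic cells, rose by 3.21 ± 0.35 in the thymus and 3.08 ± 0.35 in untreated spleen, and Irf1 by 2.75 ± 0.30 and 1.86 ± 0.30. Tlr3, the endosomal receptor for polyI:C, fell by 5.70 ± 0.49 and 3.14 ± 0.49. PolyI:C maturation had 12 higher and 4 lower than immature spleen, beside 18.4% and 28% of all genes. Ddx58 was at 4.52, Tlr3 at -4.22, Relb at 3.39 and Irf7 at 3.28. Ifngr1, the receptor chain for interferon gamma, which induces Cxcl9, was at 8.49, 8.63 and 8.20 in mature thymus cells, against 10.5, 10.28 and 10.21 in immature thymus cells. In spleen it was at 9.39, 9.31 and 8.82 after polyI:C, 10.10, 10.30 and 10.46 in untreated mature and 12.21, 12.20 and 12.09 in immature cells. It fell by 1.89 ± 0.17 in the thymus, by 1.88 ± 0.17 in untreated spleen and by 2.99 ± 0.17 with polyI:C (adjusted p at most 1.82e-06). Ifngr2, the other chain, rose by 0.71 ± 0.21 in untreated spleen (adjusted p = 0.0144) and by 0.96 ± 0.21 with polyI:C (adjusted p = 0.00152). In the thymus it was not called (0.22 ± 0.21, adjusted p = 0.464). The part of either chain in the Cxcl9 values was not tested.

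**Figure D4:**
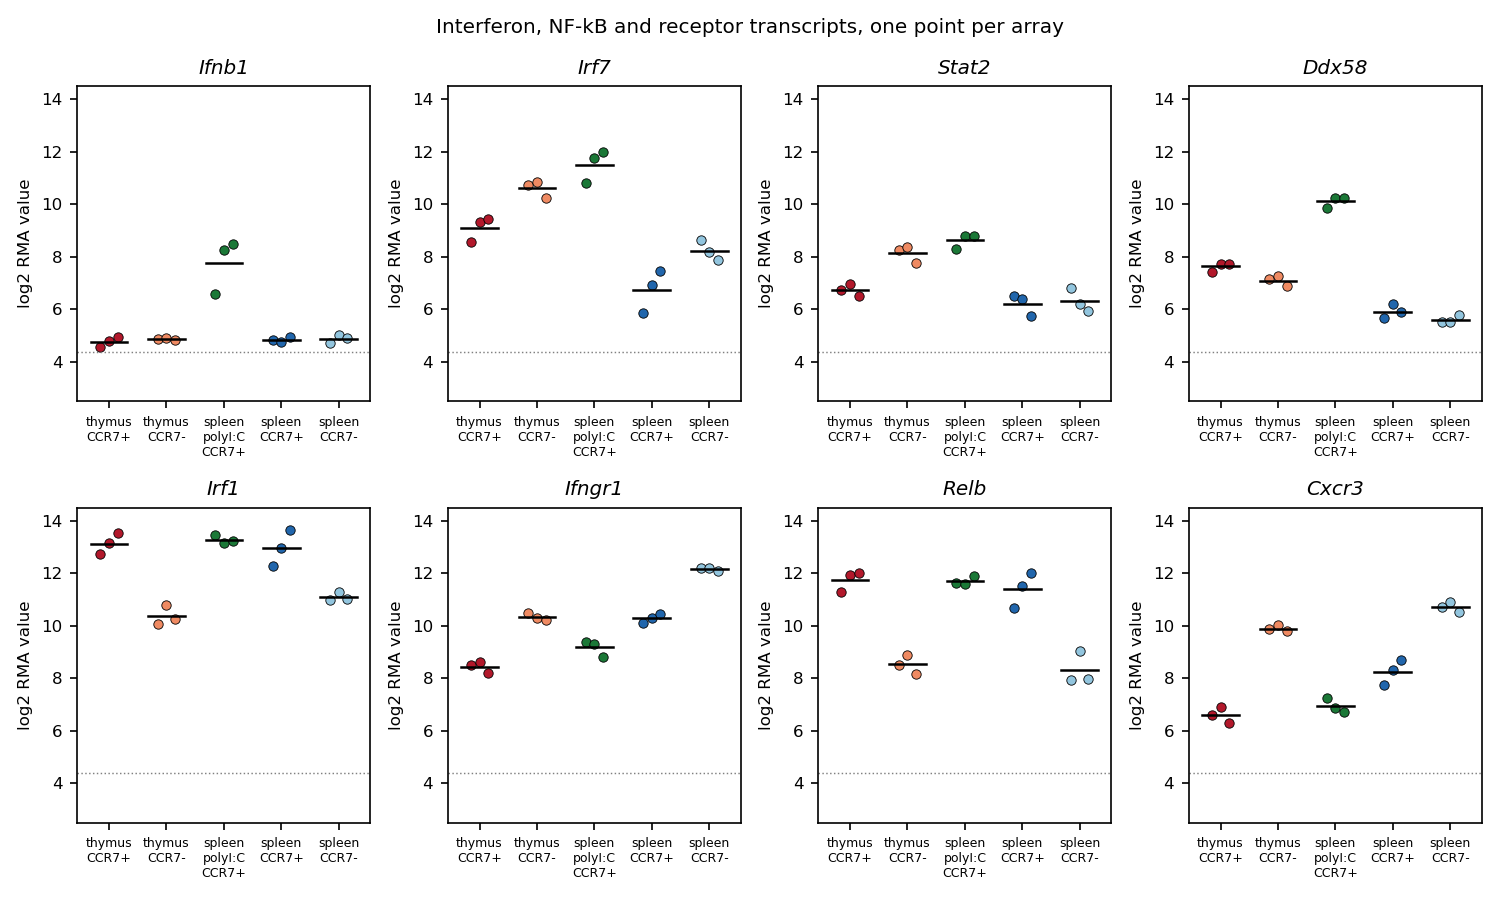
Log2 intensity per array of Ifnb1, Irf7, Stat2, Ddx58, Irf1, Ifngr1, Relb and Cxcr3 in the 5 groups, with bars at the group means and a dotted line at 4.39. Ifnb1 is at 6.58 or more on the 3 polyI:C arrays and at or below 5.01 on the 12 others, while Relb is high in all 3 mature groups.

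Across the 15 arrays the 10 chemokines fell into patterns that can be named by the genes most like them, taking the 3 highest Pearson correlations among 1469 genes with an SD of at least 1. These are descriptions, since the 15 arrays fall in 5 groups and genes that differ by maturation correlate for that alone. Ccl5 was most like Oprd1, Ccr7 and Cdc42ep3 (r = 0.993 each). Ccl22 was nearest to Sema6d (0.959), Zmynd15 (0.945) and Prph (0.935). Ccl17 was nearest to Krt8 (0.963), Rgcc (0.950) and Bcl11b (0.944). Cxcl10 was nearest to Ifnb1 (0.942), Cxcl11 (0.941) and Iigp1 (0.915), and Cxcl11 to Iigp1 (0.946), Ifnb1 (0.942) and Cxcl10. Cxcl9 was nearest to Mycl (0.985), Plpp1 (0.971) and Scarb1 (0.948). Cxcl1 was nearest to Rasgef1a (0.970), Dscaml1 (0.967) and Crispld2 (0.965), Cxcl16 to Ccl22 (0.964), Fnbp1l (0.956) and Cdkn1a (0.944), Ccl3 to Nr4a1 (0.952), Sgms1 (0.938) and Arhgap18 (0.935), and Ccl9 to Scube3 (0.934), Chst7 (0.922) and Mmp7 (0.915).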

How the data were processed

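The deposited table holds 45101 probe sets on 15 arrays as log2 values, made by the authors with RMA in affy, per the submitters' processing notes. RMA corrects background, normalises arrays by quantiles and summarises probes; the sources used here give no versions and do not say which arrays were normalised together. RMA removes shifts common to a whole array and compresses low values. The platform annotation gave 1 symbol to 34958 probe sets, several to 932, and did not list 9211; each gene was read at the probe set with the highest mean. A gene was tested if 3 or more arrays exceeded 4.39, the 40th percentile of the table. Tests used limma 3.58.1 (R 4.3.3) with 5 group means, empirical Bayes variances (10 residual and 4.01 prior degrees of freedom) and Benjamini-Hochberg adjustment over 13629 genes. The script was tested on simulated data. The number of arrays limits the precision. The members, gene lists and tests were chosen with earlier results of these data known. Within each list, up to 4 called genes a comparison are named, largest change first, plus partners of a member. Deviations from group means correlated over 0.1 in all 3 same-numbered pairs between mature thymus and untreated mature spleen (0.46, 0.42 and 0.59). The same held between the immature groups (0.57, 0.52 and 0.56), and an alternative fit paired those samples. No other comparison had all 3 pairs over 0.1, though single pairs did. The labels do not say whether any samples were paired. Alternatives covered the filter, probe-set choice, scaling, array weights, the variance model, the compared groups alone, replicate blocks and each array left out. Listed genes without a probe set of their own are not analysed here, and some items are not reported here.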

Additional observations from a re-analysis of the deposited data

Results flagged for a closer look

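The chemokines Ccl9 and Cxcl9 drew attention because their change with maturation differed between thymus and spleen by limma's test of the difference itself. For Ccl9 the thymus change minus the spleen change was -2.44 ± 0.21 (SE, adjusted p = 2.59e-05), from rises of 1.53 (thymus) and 3.97 (untreated spleen). For Cxcl9 it was -2.24 ± 0.27 (adjusted p = 0.000294), with changes of -4.20 in thymus and -1.96 in untreated spleen. The XCR1+ dendritic cell markers had a median difference of -2.56 in the same test, with 3 of 7 called lower. The second Ccl9 probe set was below 4.39 on all 15 arrays, and the second Cxcl9 probe set put the difference at -1.14.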

How the results depend on the processing

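The 10 chemokines in 8 comparisons gave 2110 values under alternatives. Of these 2048 kept their call or lack of one, 37 gained the call and 25 lost it. A change of direction was counted only where either fit was called, and there 0 reversed. Some differences that were not called did change sign. That of Cxcl9 between polyI:C-matured and untreated mature spleen, 0.30, ranged from -0.42 to 0.42. The number of the 10 called stayed within 1.5 times its value except for the difference of maturation between tissues, which was 2 and became 4 with array weights, 4 with a replicate block within fraction (chosen after seeing the data) and 5 without replicate 1 of untreated mature spleen. Leaving out 1 array at a time gave 8 to 10 called in thymic maturation, 7 to 9 in untreated spleen maturation, 9 to 9 in polyI:C maturation, 6 to 8 for polyI:C-matured against untreated mature spleen, 3 to 4 and 3 to 5 for thymus against spleen in immature and mature cells, 8 to 8 for mature thymus against polyI:C-matured spleen, and 2 to 5 for the difference. With the replicate number as a block over all arrays the counts were 9, 8, 9, 7, 3, 5, 8 and 3 in that order. Over 30 same-numbered pairs the correlations were -0.4 to 0.64, with 12 over 0.1 and own number best in 10. The highest, 0.64, was replicate 2 of polyI:C-matured against untreated mature spleen, where replicate 1 was at 0.00. Whether samples were paired outside the untreated tissue comparisons is not known. Over all genes, calls between immature groups were 1112 and became 1988 with array weights. Calls for polyI:C-matured against untreated mature spleen were 2486 and became 1081 with the compared groups alone. Calls between mature thymus and untreated mature spleen were 1660 and became 802 with the compared groups alone, 974 without replicate 2 of mature thymus and 2694 with pairing within a fraction. Calls for the difference were 433 and became 990 with that pairing and 270 without replicate 3 of immature thymus. The causes of these shifts were not tested. Levels near 4.39, as for Ccl3 and Ccl9, are near background, where changes are understated.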

Other observations

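Replicate 3 was the highest array of its group for 8 of the 10 chemokines in mature thymus, where it was highest for 30.8% of all genes tested, and for 7 of 10 in untreated mature spleen, where it was highest for 33.8%. It was highest for 4 of 10 in each of the 3 other groups, beside 29.3% of all genes in immature thymus, 27.2% in polyI:C-matured spleen and 32.3% in immature spleen. Ccl3 and Cxcl10 had replicate 3 highest in all 4 untreated groups, as did 2.66% of genes tested. Cxcl2, a neutrophil chemokine that was not called in any maturation comparison, was at 8.59, 7.29 and 9.86 in mature thymus, against 6.02, 6.08 and 8.11 in immature thymus. It was at 7.08, 6.39 and 7.11 in polyI:C-matured spleen, at 8.14, 8.37 and 9.86 in untreated mature spleen and at 6.91, 7.18 and 8.97 in immature spleen, with replicate 3 highest in all 5 groups.

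PolyI:C replicate 1 was the lowest of its group for Ifnb1, Irf7, Cxcl10 and Cxcl11. Without it, the rise over untreated mature spleen was 4.30 for Cxcl10 and 3.38 for Cxcl11, and the rise over immature spleen was 3.55 and 2.76.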
